A study of Homo sapiens with 6 samples.

Results

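The genes described here are 32 named regulators and transcriptional targets of the tumour suppressor p53, of the 35474 genes listed for A549 cells depleted of BAP18. They were chosen by name for their place in the p53 pathway, with earlier results of these data known. Inhibitors of cyclin-dependent kinases and the GADD45 family were left out of the choice. All 32 were listed and passed the filter on low counts. A549 is a human lung adenocarcinoma line. BAP18 is a chromatin-associated protein encoded by C17orf49. RNA was collected 48 h after transfection from 3 cultures that received an siRNA against BAP18 (siBAP18) and from 3 that received a non-specific siRNA (siCtrl). Both groups were therefore transfected cells of the same line, and cells without siRNA were not part of the comparison. The labels do not say which BAP18 siRNA sequence, or whether a pool, was used. The replicates are described as biological, so the p-values below measure the spread between these 6 cultures of 1 line.

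p53 is a transcription factor that is held low in unstressed cells, mainly because the ubiquitin ligase MDM2 marks it for degradation. When stress signals free it from MDM2, p53 binds paired decamer sequences in promoters and introns of its target genes. The products of those genes slow the cell cycle, repair DNA, adjust metabolism, trigger cell death and, through MDM2 and PPM1D, switch p53 off again.

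The 6 libraries held 42094524 to 56548620 counted reads. C17orf49 had 743, 751 and 705 reads in siCtrl and 120, 137 and 108 in siBAP18, a log2 fold change of -2.65. The share of reads on mitochondrial genes was 6.87 to 7.43% in siCtrl and 5.28 to 6.14% in siBAP18, and its part in the results below was not tested. RPKM is the read count scaled to exon length and to the library total. Summed over 10 epithelial markers, it was 9160 to 9440 in siCtrl and 6470 to 6770 in siBAP18. Most of that drop came from ALDH1A1 (mean 3251 to 1817 RPKM) and AKR1B10 (1409 to 727 RPKM). CDH1, at 10.3 and 4.14 RPKM, was the one marker of the 10 with a drop of more than 2-fold. KRT7 went up, from 581 to 784 RPKM. The lung lineage marker NKX2-1 had 0 to 8 reads per library. The 5 listed leukocyte markers summed to RPKM values of 29.6 to 31.7 in siCtrl and 54.7 to 70.3 in siBAP18. Nearly all of that sum was CD68, and the B cell marker MS4A1 had at most 1 read per library. The fibroblast list summed to 1.29 to 1.44 in siCtrl and 0.977 to 1.19 in siBAP18, and the endothelial list to 0.151 to 0.192 and 0.142 to 0.165. These are bulk samples, in which fewer cells of a kind and less RNA per cell cannot be told apart.

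Of the 32 p53 pathway genes, 24 rose and 3 fell after BAP18 depletion at an adjusted p under 0.05 in edgeR's quasi-likelihood test, and 5 did not pass. Those 24 are 75% of the genes, against 24.5% of all 20776 genes tested that rose. The 3 that fell are 9.38%, against 25.1% of all genes. With a change of more than 2-fold also required, 7 genes were called higher, which is 21.9% of the 32 against 4.72% of all genes. None was called lower, against 3.74% of all genes. In 23 of the 32 every siBAP18 library lay above every siCtrl library, against 27.6% of all genes, and in 4 every siBAP18 library lay below, against 29%. The median log2 fold change of the 32 was 0.62 with a range of -0.62 to 2.19, whereas the median of all genes was 0.00102. The changes differed in size: 15 of the 32 differed by less than 1.5-fold in either direction, and 7 were over 2-fold higher. The 7 called genes were AEN, BTG2, PHLDA3, GDF15, SESN2, PPM1D and MDM2.

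**Figure D1:**
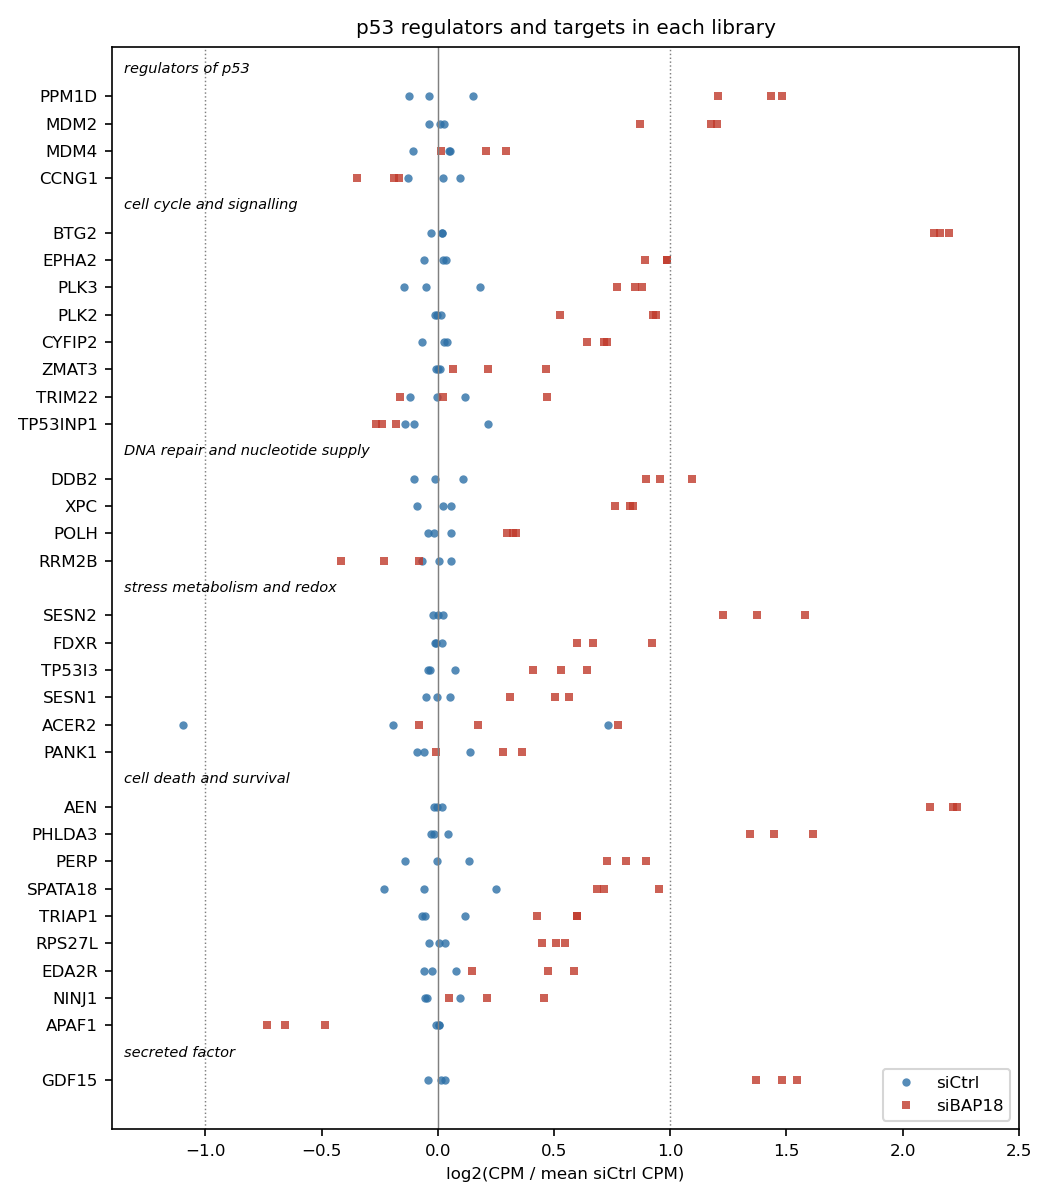
The 32 p53 pathway genes in each library, as the log2 ratio of CPM, the count scaled to library size, to the siCtrl mean (x axis), with a row for each gene and a point for each of the 3 siCtrl and 3 siBAP18 libraries. The siBAP18 points of AEN and BTG2 stand farthest to the right (log2 fold changes of 2.19 and 2.17). Among siBAP18 points, those of APAF1 stand farthest to the left (log2 fold change of -0.62). The leftmost point of all is siCtrl replicate 2 of ACER2, a gene with few reads.

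Among the 4 regulators of p53, the feedback inhibitors MDM2 and PPM1D rose, CCNG1 fell and MDM4 did not pass the test. MDM2, the ubiquitin ligase that marks p53 for degradation and is itself a p53 target (chr12:68808176-68850686, plus strand, GRCh38), read 41.1, 43.0 and 42.5 CPM in siCtrl and 97.2, 95.4 and 77.1 CPM in siBAP18, where CPM is the count scaled to library size. All 3 siBAP18 libraries lay above the siCtrl libraries, the third of them least. The mean went from 42.2 ± 0.973 to 89.9 ± 11.1 (SD, n = 3), a log2 fold change of 1.09 with a standard error of 0.0788 (adjusted p = 2.15e-11). PPM1D, the phosphatase Wip1 that removes activating phosphates from p53 and ATM (chr17:60600183-60666280, plus strand), read 8.86, 7.78 and 7.32 CPM in siCtrl and 22.3, 21.6 and 18.4 CPM in siBAP18. The groups were well apart, with a log2 fold change of 1.38 and a standard error of 0.0943 (adjusted p = 8.66e-12). MDM4, the MDM2 relative that binds p53 and blocks its activation domain, read 9.04, 9.05 and 8.11 CPM in siCtrl and 10.7, 10.1 and 8.83 CPM in siBAP18. The groups overlapped, and the log2 fold change of 0.18 had a 95% confidence interval of -0.0225 to 0.382 (adjusted p = 0.134). CCNG1 encodes cyclin G1, which recruits a phosphatase to MDM2. It read 26.6, 24.0 and 28.0 CPM in siCtrl and 23.0, 23.3 and 20.6 CPM in siBAP18, all 3 of the latter below the former. Its log2 fold change was -0.23 (adjusted p = 0.0168), and without siCtrl replicate 1 or 3 the adjusted p was 0.0622 or 0.118.

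In the cell death and survival group of 9 genes, 8 rose and 1 fell. AEN had the largest change of the 32 genes. It encodes a nuclease that digests DNA and RNA during apoptosis (chr15:88621296-88632282, plus strand), and read 48.7, 48.3 and 49.5 CPM in siCtrl and 230, 212 and 227 CPM in siBAP18. The libraries within each group lay close together, and the group means differed 4.57-fold (log2 fold change 2.19, standard error 0.0682, adjusted p = 1.37e-18). PHLDA3 encodes a pleckstrin homology protein that competes with the kinase AKT for membrane lipids (chr1:201464383-201469237, minus strand). It read 65.0, 62.4 and 61.9 CPM in siCtrl and 172, 160 and 193 CPM in siBAP18, again with no overlap. The log2 fold change of PHLDA3 was 1.47 with a standard error of 0.0730 (adjusted p = 2.17e-14). Of its exon bases, 19.1% were shared with another listed gene on the same strand, RP11-134G8.10. Reads there could be counted for either gene or for both.

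PERP, a membrane protein of desmosomes with a role in p53-dependent death, read 63.7, 70.1 and 58.0 CPM in siCtrl and 112, 119 and 106 CPM in siBAP18 (log2 fold change 0.81, adjusted p = 1.51e-09). SPATA18, a mitochondrial quality control factor, was low in both groups at 2.05, 2.86 and 2.31 CPM in siCtrl and 4.65, 3.87 and 3.95 CPM in siBAP18 (log2 fold change 0.79, adjusted p = 1.01e-04). Both genes were higher in every siBAP18 library. TRIAP1, a mitochondrial lipid transfer protein that restrains apoptosis, rose less, by 0.55 in log2 terms (adjusted p = 1.58e-06). RPS27L, a ribosomal protein S27 paralog, rose by 0.50 on the log2 scale (adjusted p = 5.76e-07), and EDA2R, a receptor of the tumour necrosis factor receptor family, by 0.42 (adjusted p = 5.28e-04). NINJ1, which mediates rupture of the plasma membrane in dying cells, read 27.1, 24.4 and 24.6 CPM in siCtrl and 29.4, 26.2 and 34.8 CPM in siBAP18. Its groups overlapped, and the log2 fold change of 0.24 (adjusted p = 0.0218) did not pass without siBAP18 replicate 3 (adjusted p = 0.119), siCtrl replicate 2 (adjusted p = 0.105) or siCtrl replicate 3 (adjusted p = 0.0899).

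APAF1 went the other way. It encodes the scaffold of the apoptosome, on which caspase-9 is activated, and read 12.0, 12.0 and 11.9 CPM in siCtrl and 7.59, 8.54 and 7.20 CPM in siBAP18. Every siBAP18 library lay below the siCtrl libraries, with a log2 fold change of -0.62 and a standard error of 0.0937 (adjusted p = 5.16e-06). This was the largest drop of the 32 genes. Of the APAF1 exon bases, 9.48% overlapped a gene on the opposite strand (ANKS1B), and whether reads were counted by strand is not given in the sources used here.

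Of the 8 cell cycle and signalling genes, 6 rose and 2 did not pass. BTG2, an antiproliferative protein that promotes shortening of mRNA poly(A) tails (chr1:203305491-203309602, plus strand), read 15.1, 14.6 and 15.1 CPM in siCtrl and 66.7, 65.6 and 68.6 CPM in siBAP18. The siBAP18 libraries differed from each other by far less than they differed from siCtrl, and the log2 fold change was 2.17 with a standard error of 0.0712 (adjusted p = 4.95e-18). EPHA2, a receptor tyrosine kinase for ephrins, read 52.8, 49.9 and 53.2 CPM in siCtrl and 103, 96.3 and 103 CPM in siBAP18, just under a doubling (log2 fold change 0.95, adjusted p = 1.34e-11). The polo-like kinases PLK2 and PLK3 act at the centrosome and in stress checkpoints. PLK2 read 54.7, 53.7 and 54.0 CPM in siCtrl and 104, 103 and 78.0 CPM in siBAP18, so the third siBAP18 library was again the lowest of its group (log2 fold change 0.81, adjusted p = 1.39e-08). PLK3 read 5.08, 5.96 and 4.75 CPM in siCtrl and 9.46, 8.99 and 9.67 CPM in siBAP18 (log2 fold change 0.83, adjusted p = 4.52e-07). CYFIP2, a subunit of the actin-regulating WAVE complex, rose by 0.70 on the log2 scale (adjusted p = 4.53e-09).

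ZMAT3, an RNA-binding zinc finger protein that controls splicing, read 6.94, 6.97 and 7.02 CPM in siCtrl and 8.10, 9.62 and 7.30 CPM in siBAP18. All siBAP18 values were higher, but they spread widely, and the log2 fold change of 0.27 was near the threshold (adjusted p = 0.0439). It did not pass when any 1 library other than siBAP18 replicate 3 was left out (adjusted p = 0.0666 to 0.283). TRIM22, an interferon-inducible antiviral ubiquitin ligase, read 1.26, 1.16 and 1.07 CPM in siCtrl and 1.18, 1.61 and 1.04 CPM in siBAP18. The groups overlapped, and the log2 fold change of 0.14 had a 95% confidence interval of -0.324 to 0.610 (adjusted p = 0.631). TP53INP1, a stress protein that promotes p53 phosphorylation and autophagy, read 7.45, 5.98 and 5.82 CPM in siCtrl and 5.33, 5.67 and 5.43 CPM in siBAP18. Its siBAP18 libraries all lay below siCtrl, yet the log2 fold change of -0.23 had an interval of -0.471 to 0.00965 (adjusted p = 0.105).

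Of the 4 genes of DNA repair and nucleotide supply, 3 rose and 1 fell. DDB2 and XPC encode the damage sensors of global genome nucleotide excision repair. DDB2 (chr11:47214465-47239240, plus strand) read 39.0, 36.7 and 42.4 CPM in siCtrl and 76.4, 73.2 and 84.0 CPM in siBAP18. The groups were far apart, and the change of 1.98-fold was just short of the 2-fold limit (log2 fold change 0.98, standard error 0.0740, adjusted p = 4.65e-11). XPC read 110, 122 and 119 CPM in siCtrl and 199, 210 and 208 CPM in siBAP18 (log2 fold change 0.81, adjusted p = 2.23e-10), and 30.4% of its exon bases overlapped listed genes on the opposite strand. POLH, the polymerase that copies past ultraviolet lesions, had 8.31, 8.45 and 8.90 CPM in siCtrl and 10.8, 10.5 and 10.7 CPM in siBAP18 (log2 fold change 0.32, adjusted p = 0.00453). RRM2B encodes the p53-inducible small subunit of ribonucleotide reductase, which makes deoxynucleotides for repair. Its mean CPM was 13.7 ± 0.599 in siCtrl and 11.7 ± 1.34 in siBAP18 (SD, n = 3). Every siBAP18 library lay below every siCtrl library, by a narrow margin (log2 fold change -0.23, adjusted p = 0.0393), and the test did not pass without siCtrl replicate 2 (adjusted p = 0.141), siCtrl replicate 3 (adjusted p = 0.0919), siBAP18 replicate 2 (adjusted p = 0.0518) or siBAP18 replicate 3 (adjusted p = 0.131).

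Of the 6 stress metabolism and redox genes, 4 rose and 2 did not pass. SESN2 and SESN1 encode sestrins, which restrain the growth kinase complex mTORC1. SESN2 read 6.79, 6.90 and 6.70 CPM in siCtrl and 20.3, 15.9 and 17.6 CPM in siBAP18, with no overlap (log2 fold change 1.40, standard error 0.0962, adjusted p = 9.32e-12). SESN1 read 5.60, 6.02 and 5.78 CPM in siCtrl and 8.58, 8.22 and 7.20 CPM in siBAP18, a smaller log2 fold change of 0.47 (adjusted p = 6.32e-04). The difference between the sestrins was not tested. FDXR, the mitochondrial ferredoxin reductase, read 45.9, 46.8 and 46.0 CPM in siCtrl and 73.4, 70.0 and 87.5 CPM in siBAP18 (log2 fold change 0.73, adjusted p = 1.48e-08). TP53I3, a quinone oxidoreductase, rose by 0.53 on the log2 scale (adjusted p = 9.07e-07). PANK1, which starts coenzyme A synthesis, had a log2 fold change of 0.23 with an interval of -0.0396 to 0.491 (adjusted p = 0.152), and its groups overlapped. ACER2, a Golgi ceramidase, was low in all libraries, at 1.30, 0.366 and 0.685 CPM in siCtrl and 0.882, 1.34 and 0.740 CPM in siBAP18. Its interval of -0.348 to 1.01 around a log2 fold change of 0.33 covered both no change and a doubling (adjusted p = 0.429).

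The secreted member was GDF15, a stress-induced cytokine of the transforming growth factor beta superfamily that reduces appetite through a hindbrain receptor (chr19:18374731-18389176, plus strand). It read 16.8, 16.0 and 16.6 CPM in siCtrl and 48.1, 42.5 and 46.0 CPM in siBAP18. The groups did not overlap, and the log2 fold change was 1.47 with a standard error of 0.0743 (adjusted p = 3.08e-14).

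**Figure D2:**
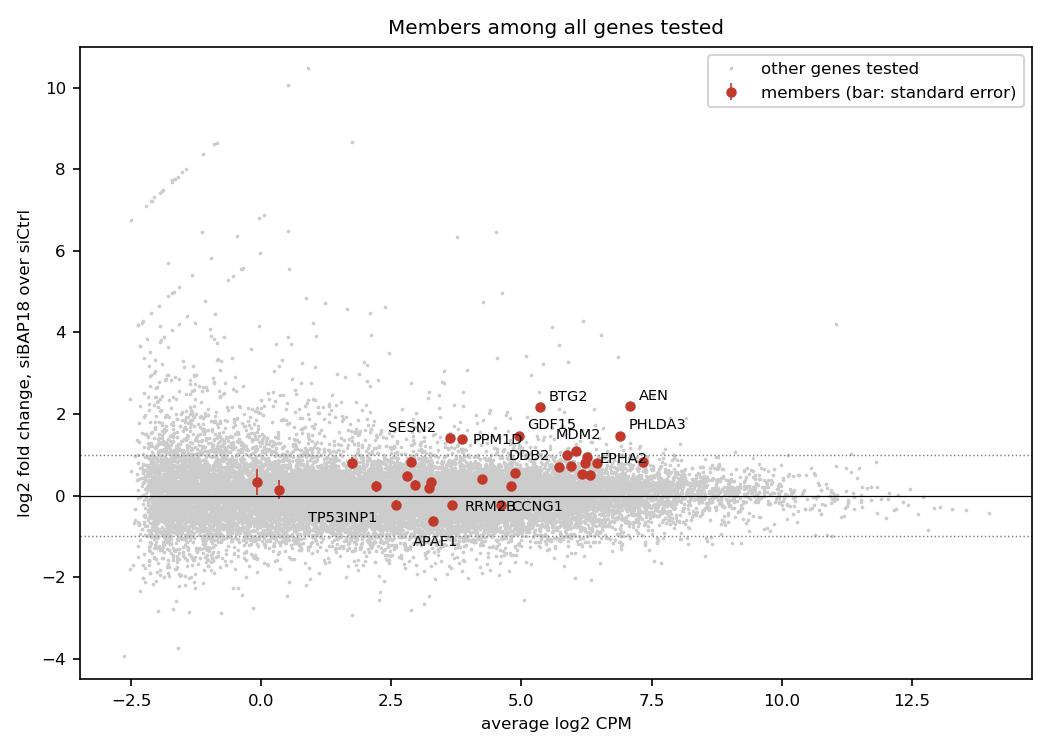
Log2 fold change of siBAP18 over siCtrl (y axis) against the average log2 CPM (x axis) for all 20776 genes tested, in grey, and for the 32 p53 pathway genes, in red with standard errors. Dotted lines mark 2-fold changes, and the 7 red points above the upper line include AEN at 2.19, BTG2 at 2.17 and MDM2 at 1.09, whereas none lies below the lower line.

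By the median, the 3 siBAP18 libraries showed the increase to a like degree. The median log2 ratio of the 32 genes to the siCtrl mean was 0.633, 0.622 and 0.595 in siBAP18 replicates 1, 2 and 3. Replicate 1 held the highest value of its group for 14 genes, and replicates 2 and 3 for 9 each. The lowest value of the group was in replicate 1 for 3 genes, in replicate 2 for 14 and in replicate 3 for 15.

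On the scale of RPKM, which allows genes to be ranked against each other, the order of the levels shifted. TP53I3, XPC and PHLDA3 led in siCtrl at 25.4, 24.4 and 20.1. In siBAP18 the highest were PHLDA3 at 55.7, XPC at 42.9 and AEN at 37.1, and AEN had moved from rank 11 to rank 3 of 32. BTG2 went from 5.40 to 24.3 RPKM, or from rank 15 to rank 6, and CCNG1 from 8.44 to 7.22 RPKM, or from rank 10 to rank 15. Of the p53 inhibitors, MDM2 stood mid-list at 3.17 and 6.80 RPKM, or rank 18 and rank 16, PPM1D lower at 1.58 and 4.13, and MDM4 lower still at 0.792 and 0.899. TRIM22 and ACER2 stood at the bottom with 0.193 and 0.348 RPKM in siCtrl. The length behind each RPKM is the union of all exons of the gene, so a gene with long minor isoforms, such as RPS27L, reads lower on this scale. Exons shared with another gene on the same strand made up 8.13% of PANK1 and 3.31% of MDM2, beside the 19.1% of PHLDA3.

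**Figure D3:**
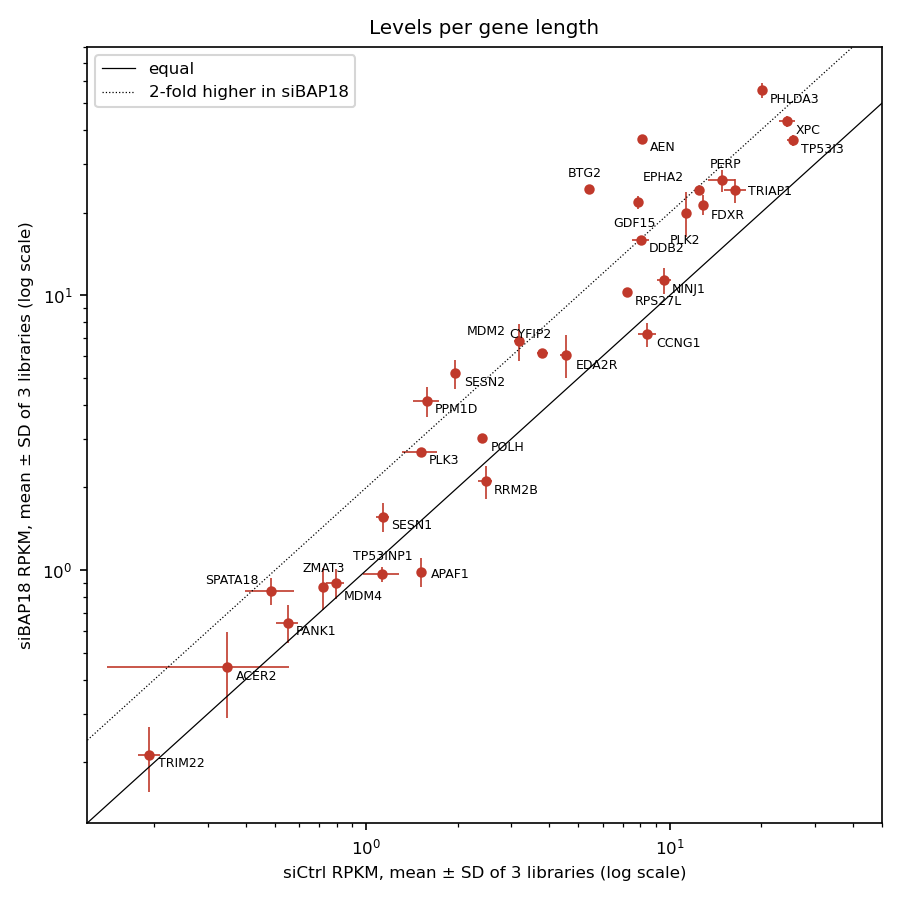
Mean RPKM of the 32 p53 pathway genes in siCtrl (x axis) and siBAP18 (y axis), both on log scales, with bars for the SD of 3 libraries, a solid line for equal levels and a dotted line for a 2-fold increase. AEN (8.10 and 37.1) and BTG2 (5.40 and 24.3) lie far above the dotted line, and APAF1 lies farthest below the solid line.

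Promoter sequences were read from RefSeq (GRCh38.p14) as windows from 250 bases before to 50 bases after each transcription start. Windows were found for 28 of the 32 genes, and PHLDA3, RRM2B, TP53INP1 and TRIM22 had none in the table used. The p53 consensus decamer, searched by its usual degenerate letters, occurred in the windows of 7 of the 28 genes (25%), against 8.06% of all 27305 genes with a window. These were AEN, DDB2, FDXR, PANK1, PLK2, RPS27L and SESN1. A full site, meaning 2 consecutive decamers, with no mismatch and up to 13 bases between them was found in DDB2 alone of the 28, and in 10 of all 35116 windows (0.0285%). With up to 3 mismatches, at most 1 base between the decamers and the core C and G of each decamer intact, 8 of the 28 genes (28.6%) had a site, against 2.91% of all genes. A letter match is a description and does not show that p53 binds there, and the genes were picked as known p53 targets, so a raised share is not independent of that choice.

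The 8 sites are shown 5′ to 3′ on the strand of the gene, because they let the genes that rose most be read beside those that changed little. Capitals mark bases that fit the consensus, and lower case marks a mismatch or, in DDB2, the base between the decamers.
AEN: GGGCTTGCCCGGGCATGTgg
GDF15: AGcCATGCCCGGGCAAGaaC
MDM2: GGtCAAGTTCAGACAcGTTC
DDB2: GAACAAGCCCtGGGCATGTTT
FDXR: GGGCAgGagCGGGCTTGCCC
RPS27L: GGcCTAGagCAGACAAGCCC
SESN1: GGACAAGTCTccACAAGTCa
PANK1: GGGCAgGaCTGGGCATGCTC

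The sites lie at chr15:88621306-88621325 (AEN, plus strand), chr19:18386186-18386205 (GDF15, plus), chr12:68808923-68808942 (MDM2, plus), chr11:47214979-47214999 (DDB2, plus), chr17:74872996-74873015 (FDXR, minus), chr15:63157527-63157546 (RPS27L, minus), chr6:109009018-109009037 (SESN1, minus) and chr10:89645256-89645275 (PANK1, minus). The mismatch count did not follow the size of the change. DDB2, with 0 mismatches, had a log2 fold change of 0.98, while AEN with 2 had 2.19, MDM2 with 2 had 1.09 and PANK1 with 2 had 0.23. GDF15, FDXR, RPS27L and SESN1 had 3 mismatches each and log2 fold changes of 1.47, 0.73, 0.50 and 0.47. BTG2, SESN2 and PPM1D, which were also called higher, had no such site in these windows, which says only that these letters are absent there.

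Whole windows are shown for DDB2, which holds the perfect site, for AEN, which changed most, and for MDM2, whose site lies before an internal start, that of the p53-responsive promoter of the gene. They cover chr11:47214724-47215023, chr15:88621090-88621389 and chr12:68808767-68809066 on the plus strand, with the site in capitals and G or C making up 65.3, 66.0 and 59.7% of the bases.
DDB2: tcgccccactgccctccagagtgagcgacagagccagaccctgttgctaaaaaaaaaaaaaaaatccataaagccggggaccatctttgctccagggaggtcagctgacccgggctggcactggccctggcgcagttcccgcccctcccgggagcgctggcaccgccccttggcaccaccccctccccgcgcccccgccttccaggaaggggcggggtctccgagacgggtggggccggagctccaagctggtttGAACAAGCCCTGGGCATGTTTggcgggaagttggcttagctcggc
AEN: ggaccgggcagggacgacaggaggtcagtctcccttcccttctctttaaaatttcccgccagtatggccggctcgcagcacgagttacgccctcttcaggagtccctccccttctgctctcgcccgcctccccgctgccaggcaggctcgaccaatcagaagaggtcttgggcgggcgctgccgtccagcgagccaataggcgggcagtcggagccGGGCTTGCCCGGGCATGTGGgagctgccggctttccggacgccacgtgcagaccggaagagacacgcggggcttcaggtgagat
MDM2: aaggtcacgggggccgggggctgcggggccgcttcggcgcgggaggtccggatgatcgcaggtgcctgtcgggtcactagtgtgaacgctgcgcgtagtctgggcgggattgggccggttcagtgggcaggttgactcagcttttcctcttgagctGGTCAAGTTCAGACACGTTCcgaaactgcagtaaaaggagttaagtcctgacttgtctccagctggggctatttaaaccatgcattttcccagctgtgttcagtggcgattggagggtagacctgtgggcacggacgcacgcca

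Motifs of other stress-activated factors were searched on both strands of the same windows. The cyclic AMP response element TGACGTCA was found in EPHA2 and PPM1D, 7.14% of the 28 genes against 2.25% of all genes. The AP-1 motif TGANTCA was found in EDA2R, MDM2, PANK1 and PERP, 14.3% against 9.37%. The ATF4-type element TGATGNAAT and the CArG box of serum response factor were found in none of the 28, against 1.22 and 1.6% of all genes. At shares that low, finding none among 28 genes says little, and the part of these factors was not tested.

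Other genes of the pathway, listed without the 32 and also with earlier results of these data known, were read for context. Of 68 further p53 targets tested, 39 rose (57.4%, against 24.5% of all genes) and 11 fell (16.2%, against 25.1%). Their median log2 fold change was 0.41. Those called higher numbered 12 (17.6%, against 4.72% of all genes). Those called lower numbered 2, where 3.74% of all genes were so called. They were FUCA1 (-1.08, adjusted p = 6.6e-10) and TLR3 (-1.55, adjusted p = 0.0123), the latter with 4 to 20 reads per library. The smallest adjusted p values were those of ATF3 (4.27, adjusted p = 2.22e-22), FOSL1 (3.70, adjusted p = 1.63e-21) and BBC3 (2.96, adjusted p = 1.08e-19). BBC3 encodes the pro-apoptotic protein PUMA. CDKN1A, the cell cycle inhibitor p21, and GADD45A, a growth arrest protein, both named after their values were seen, had log2 fold changes of 1.74 and 1.62. ATF3, FOSL1 and IER5 also stand among the immediate-early genes, and without these 3 genes 36 of 65 rose (55.4%) with a median of 0.40.

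The 32 tested genes of a list of p53 pathway controllers split into 8 that rose (25%, against 24.5% of all genes), 14 that fell (43.8%, against 25.1%) and 10 that did not pass, with a median log2 fold change of -0.13 and none past 2-fold. The examples that follow were chosen after their values were seen. The kinases ATR and ATM, which signal DNA breaks and stalled replication to p53, had log2 fold changes of -0.80 (adjusted p = 3.16e-07) and -0.50 (adjusted p = 3.74e-05). Their effector kinases CHEK1 and CHEK2 had -0.33 (adjusted p = 0.00385) and -0.11 (adjusted p = 0.246). HIPK2, a kinase that phosphorylates p53 in apoptosis, had -0.67 (adjusted p = 1.24e-07). TRIM24, a ubiquitin ligase for p53, had -0.93 (adjusted p = 2.19e-09), TTC5, a p300 cofactor, -0.83 (adjusted p = 8.77e-10), and TP63, a p53 family member, -0.82 (adjusted p = 2.53e-08). KAT5, an acetyltransferase that acts on p53, had 0.74 (adjusted p = 8.51e-09), and RPL11, a ribosomal protein that binds MDM2, 0.40 (adjusted p = 9.71e-06). The other ribosomal proteins of this list, RPL5 and RPL23, had -0.14 (adjusted p = 0.0844) and -0.06 (adjusted p = 0.531). CDKN2A, which encodes the MDM2 inhibitor ARF, had 0 to 7 reads per library and was not tested. Its locus is known to be deleted in A549.

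Several of the 32 genes can also be induced by other stress factors, so those programmes were read from the same libraries. Of all genes tested, 24.5% rose, 25.1% fell, 4.72% were called higher and 3.74% called lower. Of 30 immediate-early genes tested, 23 rose (76.7%) and 3 fell (10%) with a median log2 fold change of 0.78. Those called higher numbered 13 (43.3%). The smallest adjusted p in this list, beside those of ATF3 and FOSL1, belonged to EGR1 (6.33, adjusted p = 9.05e-22) and JUN (3.39, adjusted p = 5.93e-21). The summed RPKM of all 33 listed immediate-early genes was 263 to 273 in siCtrl and 521 to 588 in siBAP18. Of 24 genes of the ATF4 stress response, to which SESN2 and GDF15 also respond, 12 rose (50%) and 7 fell (29.2%). The median of the 24 was 0.21, with 5 called higher (20.8%) and 1 called lower, SLC7A11 (-1.12, adjusted p = 3.12e-12). PPP1R15A (4.20, adjusted p = 1.24e-22) and DDIT3 (3.93, adjusted p = 6.54e-22) had the smallest adjusted p, followed by NUPR1 (1.40, adjusted p = 9.08e-14) and TRIB3 (1.35, adjusted p = 1.53e-13). The list's summed RPKM was 656 to 676 in siCtrl and 2060 to 2230 in siBAP18, and most of that rise was PPP1R15A alone, which went from 70.5 to 1298 RPKM. Of 26 interferon-stimulated genes, 5 rose (19.2%) and 8 fell (30.8%) with a median of -0.11. MX1 (1.21, adjusted p = 1.07e-08) was the one called higher, 3.85% of the list. The part of these programmes in the values of the 32 genes was not tested.

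**Figure D4:**
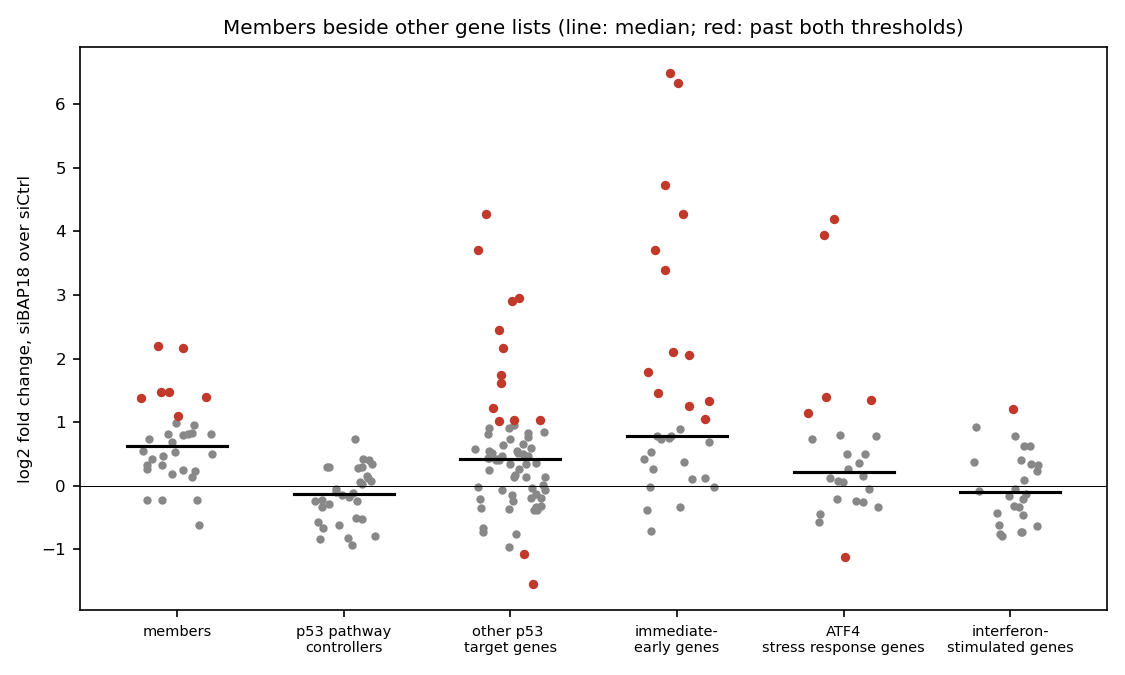
Log2 fold change of siBAP18 over siCtrl for each tested gene (points, red where called) of the 32 p53 pathway genes (labelled members) and of the other gene lists, with a line at the median of each list. The 32 p53 pathway genes had a median of 0.62, other p53 targets 0.41, immediate-early genes 0.78, ATF4 stress response genes 0.21, interferon-stimulated genes -0.11 and p53 pathway controllers -0.13.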

How the data were processed

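Poly(A)-selected, dUTP-stranded libraries were sequenced as 150-base read pairs per the labels. The authors deposited whole-number read counts and RPKM values per gene. RPKM equalled the count divided by the listed exon length in kilobases and by the library total, scaled to a common depth. Builds named are GRCm38 and hg38, and exon positions match GRCh38. Aligner, counter and use of strand are not given in the sources used here.

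Counts were filtered with filterByExpr, scaled by TMM and tested with edgeR 4.0.16 (R 4.3.3) by the quasi-likelihood test, siBAP18 against siCtrl, with Benjamini-Hochberg adjustment over 20776 genes. "Rose" and "fell" mean an adjusted p under 0.05, and "called" also an absolute log2 fold change above 1. Standard errors are the log2 fold change over the root of F. The code was tested on simulated data. The 32 genes and the other lists were chosen with earlier results of these data known. Named were the 32, C17orf49, marker genes and, of each other list, up to 4 genes past both thresholds with the smallest adjusted p, and other names were chosen after their values were seen. A few genes that this rule names are not reported here. Alternatives were other scaling, filters, DESeq2 1.42.0, limma 3.58.1 on log2(RPKM + 1) or log2(RPKM + 0.1), a replicate block and leaving out each library.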

Additional observations from a re-analysis of the deposited data

How the results depend on the processing

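Of 476 gene values under the alternatives, 446 kept their direction and their side of an adjusted p of 0.05, 25 no longer passed it, 3 newly passed it, and 2 changed sign with no pass on either side: TRIM22 without siBAP18 replicate 2 (-0.068, the other single libraries left out giving up to 0.26) and ACER2 without siCtrl replicate 2 (-0.0032, and up to 0.92). The count of p53 pathway genes called higher, 7 as reported, was 5 with limma on log2(RPKM + 1), where MDM2 (0.89) and PPM1D (0.99) dropped under 2-fold. With that setting 1.3% of all genes were called higher, against 4.72% as reported. When 1 library was left out, the count was 7 to 8, and 4.53 to 4.94% of all genes were called higher. DDB2 was called without siCtrl replicate 3 (1.04) or siBAP18 replicate 2 (1.03). The number that fell, 3 as reported, was 1 with limma at either pseudocount and 1 to 3 when 1 library was left out, the low value without siCtrl replicate 3. Of all genes, 25.1 and 24.8% fell with limma at pseudocounts of 1 and 0.1, and 21.3 to 25.4% when 1 library was left out. The median log2 fold change was 0.609 to 0.695 when 1 library was left out, and 0.542 with limma on log2(RPKM + 1). Limma's filter left 30 of the 32 genes. ZMAT3 did not pass under 10 alternatives (adjusted p up to 0.283), RRM2B under 8, CCNG1 under 4 and NINJ1 under 3. ACER2 passed without siCtrl replicate 1 (0.92, adjusted p = 0.0372), and MDM4 (0.25, adjusted p = 0.0235) and PANK1 (0.32, adjusted p = 0.0333) without siBAP18 replicate 3. TRIM22 and ACER2, at about 1 CPM, have the widest intervals of the 32. The causes were not tested.

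Same-numbered libraries showed little shared deviation (correlations -0.0166, 0.0506 and 0.00379). These values gave no sign of pairing by number, but 3 libraries per group are too few to settle it. With the replicate number as a block, 24 of the 32 genes rose, 3 fell and 7 were called higher, with a median of 0.620. Of all genes, 25.5% rose, 26.5% fell and 4.66% were called higher in that fit.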
